A study of Mus musculus with 2 samples.

Results

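The canonical histone genes supply the histones that package newly copied DNA. H2A, H2B, H3 and H4 form the protein core of the nucleosome, and H1 binds the linker DNA between nucleosomes. These genes lie in clusters, most have no intron, and their transcripts are made mainly in S phase. Most of these transcripts end in a conserved stem-loop in place of a poly(A) tail. The stem-loop-binding protein SLBP holds this structure, and the U7 small nuclear ribonucleoprotein guides the cut just after it.

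The members described here are the symbols of the deposited expression tables that begin with Hist1h, Hist2h, Hist3h or Hist4h. There were 67 of them among 23889 symbols. Mouse embryonic stem cells (mESCs) of the E14 line, which the label derives from a 19/Ola mouse and which were grown without feeder cells, gave the RNA for 2 libraries. One came from cells with a control shRNA (genotype label Normal) and the other from cells with an USP21 shRNA (genotype label USP21 knockdown). Both were transfected, harvested after 3 days, and kept on gelatin in medium with 15% FBS and 1000 U/ml LIF. USP21 is a deubiquitinase, and ubiquitinated histone H2A is among its substrates. The labels do not say which USP21 shRNA was used. Neither group has a replicate, so every difference below is between these 2 libraries, without an error or a test.

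The members by class were 6 H1, 18 H2A, 18 H2B, 12 H3 and 13 H4 genes. In GENCODE M21 (GRCm38) the Hist1 cluster held 53 of them on chromosome 13 (21715763 to 23934851). The Hist2 cluster held 10 on chromosome 3 (96219865 to 96270132), and the Hist3 cluster held 3 on chromosome 11 (58948920 to 58956830). Hist4h4 stood alone on chromosome 6 (136801553 to 136804415). All 67 members were found in this annotation, and 1 of them, Hist3h2bb-ps, is a pseudogene by its symbol.

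The stem-loop was looked for after the stop codon of each member, as 2 arms of 6 bases, GGNNCT and AGNNCC, that pair in full around a loop of 4 bases. It was found in 45 of the 51 members whose annotated 3′ UTR had room for it, between 21 and 58 bases after the stop codon. The 6 without a match were Hist1h1a, Hist1h2bc, Hist1h2bp, Hist1h2bq, Hist2h2be and Hist2h3b. No match says only that these letters were not in the transcript chosen here. The sequences below show the arms that set the H4 genes apart from the rest and the main variants of the loop, with the 16 bases of arms and loop in capitals and 5 bases on either side.
Hist1h1c: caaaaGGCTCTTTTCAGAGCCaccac
Hist1h3c: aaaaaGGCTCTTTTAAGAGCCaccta
Hist1h3g: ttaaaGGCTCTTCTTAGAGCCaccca
Hist1h4d: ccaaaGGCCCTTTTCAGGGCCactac
Hist1h4i: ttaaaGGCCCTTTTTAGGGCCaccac
Hist1h4b: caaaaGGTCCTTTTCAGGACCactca

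The Hist1h4d stem-loop lay at chr13:23581945-23581970 on the plus strand and that of Hist1h4i at chr13:22040961-22040986 on the minus strand. The arm GGCTCT and its complement AGAGCC occurred in H1, H2A, H2B and H3 transcripts. The arms GGCCCT or GGTCCT occurred in H4 transcripts only, among the 45. The commonest sequence, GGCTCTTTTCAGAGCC, was shared by 25 members, and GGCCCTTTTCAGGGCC by 7 H4 members. The 25 summed to 60.5 FPKM with the control and 45.6 with the USP21 shRNA, and the 7 to 27.4 and 17.5. The loop of Hist1h4i was also that of Hist2h4, and that pair summed to 21.6 and 21.1 FPKM. Most of this was Hist1h4i alone, at 20.3 and 19.8. FPKM is the number of fragments scaled to transcript length and to the number mapped, so levels of genes of different length can be compared on it.

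The regions before the start sites were read from the RefSeq promoters (GRCm38.p6), which held 61 of the 67 members. Shown are the 150 bases before the start of an H2B gene that shares its promoter region with an H2A gene, of the H1 gene with the highest level, and of a pair of H4 genes that differed in their log2 ratio. Capitals mark the octamer ATTTGCAT, the TATA box TATAAA, the CCAAT box CCAAT and the H1 box AAACACA, on either strand. None of these letters contains another of them.
Hist1h2bg: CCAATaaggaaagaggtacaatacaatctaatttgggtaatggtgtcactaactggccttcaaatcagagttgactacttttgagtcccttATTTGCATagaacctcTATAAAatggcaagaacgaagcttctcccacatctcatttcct
Hist1h1c: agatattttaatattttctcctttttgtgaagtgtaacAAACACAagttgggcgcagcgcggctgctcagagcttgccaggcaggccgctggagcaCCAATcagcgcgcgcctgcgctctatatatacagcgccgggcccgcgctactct
Hist1h4d: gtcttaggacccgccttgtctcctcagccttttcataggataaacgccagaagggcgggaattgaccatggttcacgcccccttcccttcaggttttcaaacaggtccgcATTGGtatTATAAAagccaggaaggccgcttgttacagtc
Hist1h4i: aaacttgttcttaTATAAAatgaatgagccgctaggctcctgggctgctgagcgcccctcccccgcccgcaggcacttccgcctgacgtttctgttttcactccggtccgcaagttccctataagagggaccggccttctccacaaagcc

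These lie at chr13:23571250-23571399 (plus strand), chr13:23738657-23738806 (plus), chr13:23581418-23581567 (plus) and chr13:22041363-22041512 (minus). In the whole 250 bases before the start, the octamer, the binding sequence of POU factors such as Oct1, was present in 7 of 18 H2A and 7 of 15 H2B members. It was present in 0 of 6 H1, 0 of 10 H3 and 0 of 12 H4 members, and in 1.81% of all 27025 genes. The H1 box, an element known from H1 promoters, was present in 5 of 6 H1 members and in 7.20% of all genes. The CCAAT box was present in all H1, H2A and H2B members searched, in 8 of 10 H3 and in 3 of 12 H4 members, against 37.5% of all genes. A match is a description of the letters and not a measured binding site.

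Usp21 itself was at an FPKM of 26.2 with the control and 3.49 with the USP21 shRNA, a log2 ratio of -2.87. Here and below, a log2 ratio is the USP21 shRNA value over the control value with 0.1 added to each. The mESC label was checked on 10 markers, all of which were listed above 0 in both libraries, with Pou5f1 at 868 and 752 FPKM and Nanog at 467 and 258. The 10 fibroblast markers summed to 20.97 and 11.4 FPKM, most of it Thy1 at 17.3 and 5.29. Of the 8 fibroblast markers above 0 in both libraries, 6 had a higher value with the USP21 shRNA, among them Pdgfra at 2.48 and 4.22 FPKM and Acta2 at 0.177 and 1.02, and Lum was listed at 0 in both. The FPKM values summed to 613617 and 543206, and 6578 and 6638 symbols were listed at 0. The files give no counts. In intronless genes of 900 to 1000 bases the low values lay in steps of 1 fragment, and from these steps an FPKM of 1 in a 500-base gene stands for about 8.11 fragments in the control library and 6.99 in the other. For the short histone transcripts these are upper estimates, since Cufflinks divides by an effective length that is shorter than the transcript.

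The members were low in both libraries and, as a set, lower in the USP21 shRNA library. They summed to 209 FPKM with the control and 149 with the USP21 shRNA, a log2 ratio of -0.49, so the second sum was 71.4% of the first. That is 0.0340% and 0.0274% of all FPKM. The level per member ran from 0 to 20.3 in the control library, with a median of 1.92, and from 0 to 19.8 in the other, with a median of 1.24. In bulk RNA, fewer cells in S phase and less histone RNA per cell cannot be told apart.

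Of the 67 members, 51 were above 0 in both libraries, 8 were listed at 0 in both, and 8 in the USP21 shRNA library only. None was at 0 in the control library only. Among those above 0 in both, 44 had a lower and 7 a higher value with the USP21 shRNA. The median log2 ratio of the 56 members with an FPKM of 0.1 or more in either library was -0.55, against 0.00 for all 15316 genes past the same limit. Of the 51 members above 0 in both, the median was -0.45.

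An FPKM of 1 or more in either library was reached by 43 members, and 39 of them (90.7%) were below a log2 ratio of 0, where 49.6% of all 11927 such genes were. A difference of 2-fold or more, with that limit on the level, was seen for 14 members (32.6%) on the lower side, against 2.03% of all genes. On the higher side it was seen for 0 members, against 2.3% of all genes. The 14 members summed to 71.3 FPKM with the control and 30.7 with the USP21 shRNA, which was 68.0% of the net difference of the whole set. They came from all 5 classes, with 1 H1, 4 H2A, 4 H2B, 4 H3 and 1 H4 gene. Several of them rest on few fragments in the USP21 shRNA library. The estimates there ran from 2.3 for Hist1h1e, 3.3 for Hist1h2ag and 4.6 for Hist1h2bb up to 36.0 for Hist1h3c. The share over all genes was not matched for the number of fragments. Just inside the limit lay Hist1h3h (-1.03) and Hist1h4d (-1.02), and just outside it Hist1h4b (-0.84) and Hist1h1a (-0.82). With both libraries brought to equal sums of FPKM, the median of all genes was 0.17 and the log2 ratio of the members' sum was -0.31. Then 32 of the 43 members were below 0, but the share of all genes below 0 was not computed at equal sums. At these sums 9 members were lower by 2-fold and 0 higher, against 1.28% of all genes lower (153 lower and 443 higher). With a pseudocount of 1 the members' counts were 2 and 0, against 0.838% of all genes lower (100 lower and 108 higher).

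**Figure D1:**
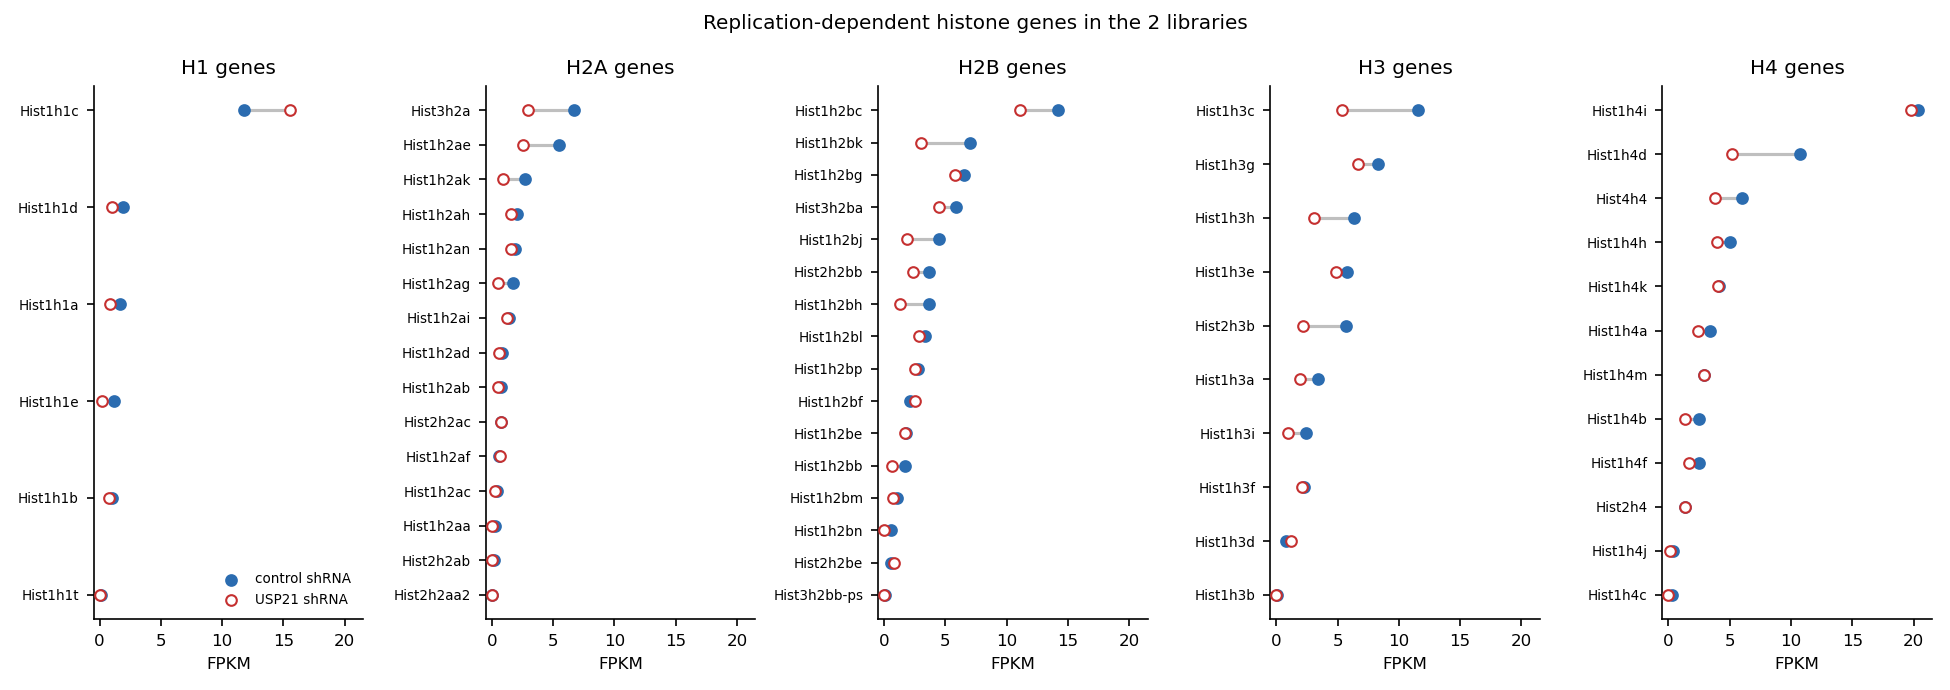
FPKM (x axis) of each of the 59 members listed above 0 in the control library, by class, with filled blue circles for the control shRNA library and open red circles for the USP21 shRNA library, 1 library each. Most open circles lie left of the filled ones, most widely for Hist1h3c (11.5 and 5.37) and Hist1h4d (10.7 and 5.20), while Hist1h1c lies the other way (11.7 and 15.5).

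The H1 class, the linker histones, was dominated by Hist1h1c, and the other members were lower with the USP21 shRNA. Hist1h1c, which encodes H1.2, was at 11.7 FPKM with the control and 15.5 with the USP21 shRNA, a log2 ratio of 0.40. Hist1h1e, which encodes H1.4, was at 1.16 and 0.208 FPKM, the lowest log2 ratio among the members above 0 in both libraries at -2.03. These 2 genes differed in opposite directions, but Hist1h1e rests on an estimated 14.7 and 2.3 fragments, where Hist1h1c has 138 and 157. Hist1h1d (H1.3) was at 1.93 and 1.05 FPKM, Hist1h1a (H1.1) at 1.63 and 0.879, and Hist1h1b (H1.5) at 0.994 and 0.732. The testis gene Hist1h1t was at 0.123 and listed at 0. Summed, H1 was at 17.6 and 18.4 FPKM, a log2 ratio of 0.06, and without Hist1h1c this became -1.002. H1 thus made up 8.43% of the summed level of the members with the control and 12.3% with the USP21 shRNA.

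The H2A class had the lowest log2 ratio of its sum among the 5 classes, with 25.7 FPKM with the control and 13.95 with the USP21 shRNA (-0.87). All 7 H2A members with an FPKM of 1 or more were below 0. Hist3h2a, the highest, was at 6.67 and 2.93 FPKM (-1.16), and Hist1h2ae was at 5.44 and 2.54 (-1.07). Hist1h2ak was at 2.73 and 0.908 FPKM (-1.49), and Hist1h2ag was at 1.72 and 0.498 (-1.61). These were the 4 H2A genes past the 2-fold limit, and they included the 3 highest control levels of the class. The other 3 above the level limit were nearer to 0, Hist1h2ah at 2.04 and 1.57, Hist1h2an at 1.92 and 1.55, and Hist1h2ai at 1.44 and 1.24. A further 5 were below an FPKM of 1 with values in both libraries, from Hist1h2ac at 0.401 and 0.224 to Hist1h2ad at 0.804 and 0.622, and 2 of those 5 were higher with the USP21 shRNA, Hist1h2af (0.590 and 0.658) and Hist2h2ac (0.715 and 0.733).

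The H2B class summed to 59.4 FPKM with the control and 41.8 with the USP21 shRNA (-0.51). Hist1h2bc, the highest, was at 14.2 and 11.1 FPKM (-0.35), and Hist1h2bg was at 6.55 and 5.81 (-0.17). The H2B genes past the 2-fold limit stood below Hist1h2bc in level. They were Hist1h2bk at 6.98 and 3.04 FPKM (-1.17), Hist1h2bj at 4.49 and 1.83 (-1.248), Hist1h2bh at 3.68 and 1.30 (-1.44) and Hist1h2bb at 1.72 and 0.673 (-1.24). Hist3h2ba was at 5.87 and 4.51 FPKM (-0.37) and Hist2h2bb at 3.71 and 2.36 (-0.63). Hist1h2bm was at 1.03 and 0.727 FPKM (-0.45). Values closer together were seen for Hist1h2bl (3.37 and 2.82), Hist1h2bp (2.73 and 2.52) and Hist1h2be (1.804 and 1.72). Hist1h2bf at 2.13 and 2.55 FPKM (0.25) and Hist2h2be at 0.533 and 0.840 (0.57) were higher with the USP21 shRNA.

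The H3 class summed to 46.5 FPKM with the control and 28.3 with the USP21 shRNA (-0.72). Hist1h3c was at 11.5 and 5.37 FPKM (-1.09) and held 10.3% of the net difference of all members, the largest share of any gene. Hist1h3g was at 8.27 and 6.64 FPKM (-0.31) and Hist1h3e at 5.75 and 4.88 (-0.23). Also past the 2-fold limit were Hist1h3h at 6.33 and 3.06 FPKM (-1.03), Hist2h3b at 5.68 and 2.16 (-1.36), and Hist1h3i at 2.43 and 0.955 (-1.26). Hist1h3a was at 3.44 and 1.95 FPKM (-0.79), Hist1h3f at 2.22 and 2.07 (-0.09), and Hist1h3d at 0.776 and 1.17 (0.54). The last of these was the only H3 gene with a higher value in the USP21 shRNA library.

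The H3 genes encode 2 main proteins that differ at 1 residue, known as H3.1 and H3.2, and both sums were lower with the USP21 shRNA. The 4 H3.1 genes (Hist1h3a, Hist1h3g, Hist1h3h and Hist1h3i) summed to 20.5 FPKM with the control and 12.6 with the USP21 shRNA, a log2 ratio of -0.70. The 7 genes with one shared H3.2 protein summed to 26.04 and 15.7 FPKM, a log2 ratio of -0.73. The 12th H3 gene, Hist2h3c1, has a longer annotated protein and was listed at 0.

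The H4 class summed to 59.5 FPKM with the control and 46.6 with the USP21 shRNA (-0.35), and its highest gene was nearly level. Hist1h4i, the highest member of any class in both libraries, was at 20.3 and 19.8 FPKM (-0.04). Hist1h4d was at 10.7 and 5.20 FPKM (-1.02) and Hist4h4 at 5.99 and 3.76 (-0.66). Without Hist1h4i the log2 ratio of the H4 sum was -0.55. Hist1h4h was at 5.03 and 3.97 FPKM, Hist1h4k at 4.10 and 4.02, and Hist1h4m at 2.91 and 2.88. Lower values with the USP21 shRNA were listed for Hist1h4a (3.397 and 2.42), Hist1h4b (2.51 and 1.36) and Hist1h4f (2.50 and 1.66). Hist2h4 was at 1.31 and 1.32 FPKM. All 13 H4 genes encode the same protein of 103 residues, so the H4 sum is also the level of the RNA for that protein.

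**Figure D2:**
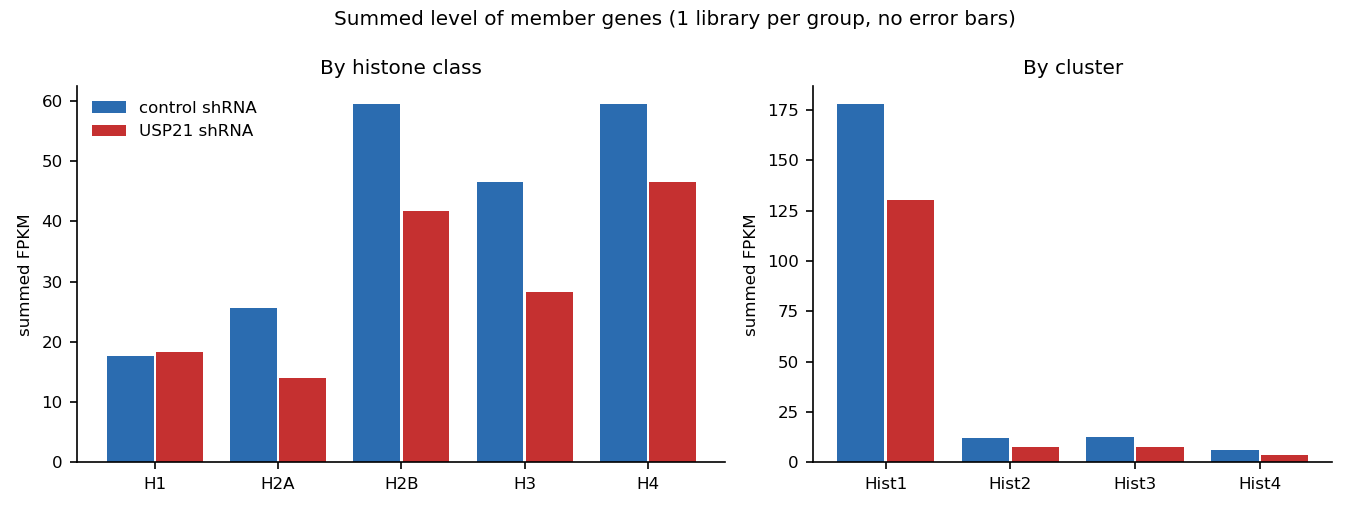
Summed FPKM (y axis) of the members of each histone class (left) and of each cluster (right) in the control shRNA library (blue) and the USP21 shRNA library (red), 1 library each and so without error bars. The H2A sums are 25.7 and 13.95 and the H1 sums 17.6 and 18.4.

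The balance between the classes differed between the libraries. The summed H2A level was 0.432 of the H2B level with the control and 0.334 with the USP21 shRNA, and H3 was 0.782 and 0.607 of H4. H2B was 0.999 and 0.898 of H4. These are ratios of RNA levels within a library, so scaling between the libraries does not change them. They do depend on single genes and on transcript length. Without Hist1h4i the log2 ratio of the H4 sum was -0.55, against -0.51 for H2B and -0.72 for H3. With the correction for GC content and length given below, the H2A and H2B sums were at -0.52 and -0.28, against -0.87 and -0.51 without it. H3 and H4 were then at -0.41 and -0.11, against -0.72 and -0.35. The 5 highest members held 32.8% of the summed level of all members with the control and 39.5% with the USP21 shRNA. Hist1h4i, Hist1h2bc and Hist1h1c were among the 5 in both.

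The members are near-copies of one another, and how the reads that fit several copies were divided among them is not given in the sources used here. Of the 67 members, 40 shared at least 50% of the 31-base words of their transcript with other genes. Those 40 summed to 105 FPKM with the control and 68.4 with the USP21 shRNA (-0.61), and the 27 others to 104 and 80.6 (-0.37). A sum over near-identical copies depends less on that division than a single copy does. Members that shared at least 20% of the words of the smaller transcript were joined, which gave 17 groups. The largest were 16 H2A genes at 18.8 and 11.02 FPKM (-0.76), 14 H2B genes at 49.2 and 34.1 (-0.53), 12 H3 genes at 46.5 and 28.3 (-0.72), and 11 H4 genes at 52.2 and 41.5 (-0.33). Of the 13 groups with a summed FPKM of 1 or more, 2 were lower by 2-fold, Hist3h2a and Hist1h1e, each a group of its own. With groups joined at 50% of the words, 4 of 17 were lower by 2-fold, and with groups of identical protein, 6 of 20. Of all single genes with an FPKM of 1 or more in either library, 2.03% were.

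Of the 8 listed at 0 in both libraries, 7 shared from 64.2% to 100% of their words with other genes: Hist1h2ao, Hist1h2ap, Hist1h2bq, Hist1h4n, Hist2h2aa1, Hist2h3c1 and Hist2h3c2. Hist1h2ba, a testis H2B gene, shared 44.1%. Members that shared as much were also listed with values, such as Hist2h3b and Hist2h2bb (each 100%) and Hist1h3h (94.2%). Those at 0 in the USP21 shRNA library only had low control values, from 0.0438 FPKM for Hist2h2aa2 to 0.572 for Hist1h2bn. No fold is given against a value of 0. Hist1h1t, Hist1h2aa and Hist1h2ba, the testis genes of the set, were at 0.123, 0.232 and 0 FPKM in the control library and listed at 0 in the other. Of 8 germ cell markers, Ddx4 was at 14.6 and 14.4 FPKM and Stra8 at 5.30 and 14.3, while Prm1, Prm2 and Tnp1 were listed at 0 in both.

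By cluster, the sums were lower with the USP21 shRNA at each of the 4 locations. The Hist1 cluster summed to 178 FPKM with the control and 130 with the USP21 shRNA (-0.45). The Hist2 cluster was at 12.2 and 7.41 FPKM (-0.71), the Hist3 cluster at 12.6 and 7.44 (-0.76), and Hist4h4 at 5.99 and 3.76 (-0.66). Hist2h3b carried most of the Hist2 difference, and without it the Hist2 log2 ratio was -0.30. Without Hist3h2ba, the member of that cluster with the highest mean level, the Hist3 value was -1.18.

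Within the Hist1 cluster the members fall into 4 neighbourhoods with gaps of over 100000 bases between them. The first 17 genes (21715763 to 21833507) summed to 30.95 FPKM with the control and 21.6 with the USP21 shRNA (-0.52). The next 5 genes (22035164 to 22043676) were at 35.6 and 26.7 FPKM (-0.41). The 29 genes of the third neighbourhood (23531050 to 23764406) were at 111 and 82.0 FPKM (-0.44), and the fourth, with the testis pair Hist1h2ba and Hist1h2aa, was at 0.232 and 0. Neighbours did not share one value. In the second neighbourhood Hist1h4i (-0.04) lies between Hist1h2bk (-1.17) and Hist1h2ag (-1.61). In the third, Hist1h3d (0.54) is next to Hist1h4d (-1.02). Of the 51 other symbols in the Hist1 interval, 3 reached an FPKM of 1. These were Abt1 at 16.1 and 17.2 FPKM, Zfp322a at 8.84 and 7.92, and Zfp184 at 2.91 and 3.36.

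**Figure D3:**
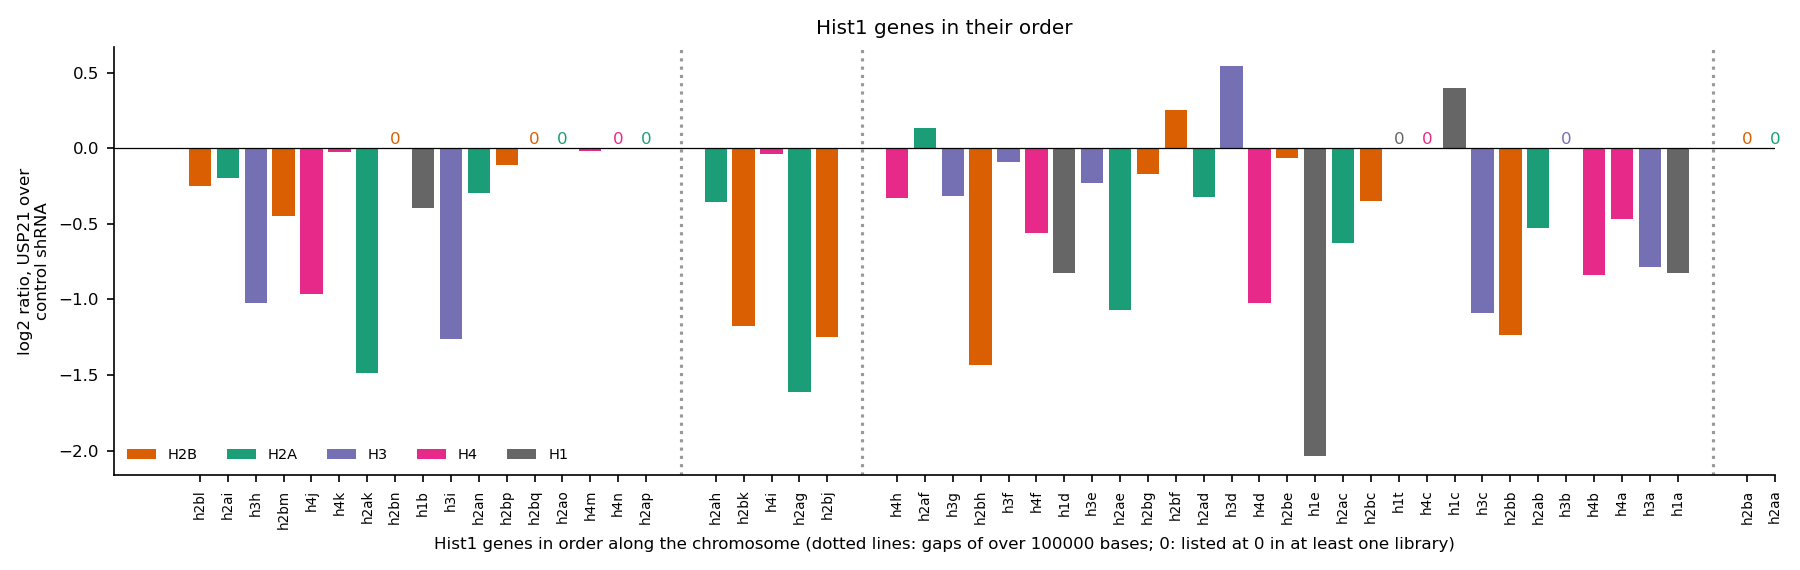
Log2 ratio (y axis) of the 53 Hist1 genes in their order along chromosome 13 (x axis, order only), coloured by class, with dotted lines at the gaps between neighbourhoods and a 0 for genes listed at 0 in at least one library. Bars of all heights lie side by side in the first 3 neighbourhoods, and the 4 bars above 0 are Hist1h2af, Hist1h2bf, Hist1h3d and Hist1h1c.

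Many H2A and H2B genes are transcribed away from each other out of one shared promoter region. There were 12 such pairs with start sites at most 500 bases apart, and in 8 of them all 4 values were above 0. In those 8 the start sites lay 176 to 302 bases apart. The H2B gene had the higher level in 7 of 8 pairs with the control and in 8 of 8 with the USP21 shRNA, with a median H2B over H2A ratio of 2.48 and 2.28. Hist1h2ae and Hist1h2bg, whose shared region is printed above, were at 5.44 and 6.55 FPKM in the control library and 2.54 and 5.81 in the USP21 shRNA library. Hist1h2ag and Hist1h2bj were at 1.72 and 4.49 in the control library and 0.498 and 1.83 in the other. In the first pair the H2A gene alone was past the 2-fold limit, and in the second both genes were. Hist1h2ah and Hist1h2bk went the other way, with H2A at 2.04 and 1.57 FPKM and H2B at 6.98 and 3.04. Hist1h2ac and Hist1h2bc differed most in level, at 0.401 and 14.2 FPKM in the control library. Both genes were lower with the USP21 shRNA in 6 of 8 pairs. The median of the H2B minus the H2A log2 ratio was 0.32, and with a pseudocount of 1 it was 0.02.

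Of the 33 H2A and H2B members with a promoter sequence, both those with the octamer and those without summed to less with the USP21 shRNA. The 14 with the octamer summed to 38.0 FPKM with the control and 22.8 with the USP21 shRNA (-0.73), and the 19 without it to 32.3 and 20.998 (-0.62). Among those with an FPKM of 1 or more, 4 of 9 with it and 4 of 10 without it were lower by 2-fold, against 2.03% of all genes. The median log2 ratios with and without it were -0.63 and -0.33. Pou2f1, which encodes the octamer-binding factor Oct1, was at 13.9 and 17.9 FPKM.

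Short genes had lower log2 ratios in these libraries in general, and most members are short. Among other genes with an FPKM of 1 or more, the median log2 ratio was -0.34 for the 147 with a transcript from 300 to under 600 bases, -0.22 for the 601 from 600 to under 1000, -0.10 for the 2503 from 1000 to under 2000, and 0.12 for the 2916 from 4000 to under 8000 bases. The 23 members of 300 to under 600 bases had a median of -0.56, and the 8 of 600 to under 1000 bases one of -0.30. Members annotated as longer were also below the other genes of their annotated length. Their median was -0.22 for 8 of 1000 to under 2000 bases, where other genes were at -0.10. It was -0.66 for 3 of 2000 to under 4000 bases, where other genes were at -0.01. Hist1h1d, the 1 member of 4000 to under 8000 bases, was at -0.82. These lengths are of the 1 GENCODE transcript chosen per gene. RefSeq gives 776 bases for Hist1h1d, 439 for Hist4h4 and 508 for Hist3h2a, which would place them in shorter ranges. Among genes of 300 to under 600 bases, 8.84% of the 147 others and 8 of the 23 members were lower by 2-fold. After a lowess correction for GC content and transcript length the median log2 ratio of the members was -0.22 and the log2 ratio of their summed FPKM was -0.25. The corrected class sums were 0.13 for H1, -0.52 for H2A, -0.28 for H2B, -0.41 for H3 and -0.11 for H4. With the correction 29 of the 43 members were below 0, and the median of all genes was -0.01. The share of all genes below 0 was not computed with it. Of the members, 5 were lower by 2-fold and 0 higher, against 1.73% of all genes lower by 2-fold under the same correction. The correction used the GENCODE lengths, so members annotated as long there were corrected as long genes. The 5 lower by 2-fold with it were Hist1h1e (-1.99), Hist1h2bh (-1.38), Hist1h2ag (-1.20), Hist3h2a (-1.14) and Hist1h1d (-1.05). Of these, Hist1h2ag has a GENCODE transcript of 485 bases and an estimated 3.3 fragments in the USP21 shRNA library. The others have GENCODE transcripts of 1679 to 7425 bases but RefSeq lengths of 508 to 782. Hist1h1d was past the limit only with the correction. Hist1h1d went from -0.82 to -1.05, Hist4h4 from -0.658 to -0.664 and Hist3h2a from -1.16 to -1.14. A correction with RefSeq lengths was not tried. The part of transcript length in the result was otherwise not tested.

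**Figure D4:**
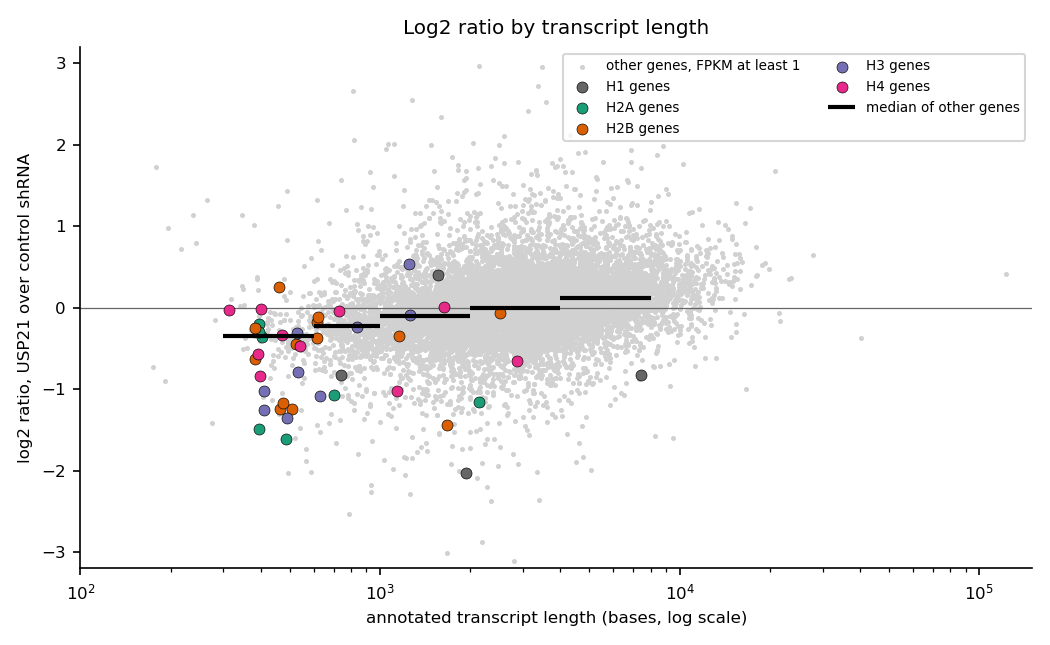
Log2 ratio (y axis) against annotated transcript length in bases (x axis, log scale) for genes with an FPKM of 1 or more in either library, with other genes in grey, members coloured by class and black lines for the median of other genes in each length range. The black lines climb from -0.34 at 300 to under 600 bases to 0.12 at 4000 to under 8000 bases, and 8 other genes beyond a log2 ratio of 3.2 are not shown.

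Some histone genes are also annotated with long transcripts that run past the stem-loop. The 24 members with an annotated 3′ UTR of 200 bases or more summed to 102 FPKM with the control and 83.6 with the USP21 shRNA (-0.29). They include Hist1h4i, Hist1h2bc and Hist1h1c, the 3 members of highest mean level. The 27 members with a 3′ UTR from 20 to under 200 bases summed to 75.5 and 45.5 FPKM (-0.73), and the 16 with a shorter one or none to 30.7 and 19.9 (-0.63). Over members with an FPKM of 0.1 or more in either library, the median log2 ratios of these 3 groups were -0.37, -0.56 and -0.51. After the correction for GC content and GENCODE length they were -0.25, -0.20 and -0.24. A long annotated 3′ UTR also makes the length used in that correction long. How the RNA of the libraries was selected, by a poly(A) tail or otherwise, is not given in the sources used here.

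RNAs that are known to lack a poly(A) tail were listed at low or no level apart from a few. Of 11 such symbols in the tables, 6 were at 0 in both libraries, and 3 reached an FPKM of 1. Rmrp was at 27.0 and 24.3 FPKM, Terc at 2.29 and 1.89, and the long nuclear RNA Malat1 at 104 and 128. Their part in the histone result was not tested.

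The replication-independent histone genes, whose transcripts mostly carry poly(A) tails and are mostly not limited to S phase, were also lower with the USP21 shRNA. Of the 13 in the tables, 11 had an FPKM of 1 or more. All 11 were below a log2 ratio of 0, against 49.6% of all genes, with a median of -0.41 (-0.23 with equal sums). Of these, 0 were lower by 2-fold, against 2.03% of all genes. H2afz, which encodes H2A.Z, was at 2072 FPKM with the control and 1328 with the USP21 shRNA (-0.64). H1fx was at 50.6 and 28.5 FPKM (-0.82), H2afx at 216 and 155 (-0.48), and H2afj at 16.7 and 11.5 (-0.53). The H3.3 genes H3f3a and H3f3b were at 627 and 499 FPKM (-0.33) and at 650 and 612 (-0.09). H1f0 was at 65.8 and 49.0 FPKM, H2afy at 50.7 and 38.2, H2afy2 at 24.0 and 21.8, H2afv at 95.6 and 93.1, and the centromere histone gene Cenpa at 101 and 87.6. These genes summed to 3970 and 2924 FPKM, far above the replication-dependent members on the same per-length scale. Since the RNA selection is not given and most member transcripts lack a poly(A) tail, this gap need not be one of RNA in the cells. The part of the selection in it was not tested.

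The histone gene expression factors did not show a shared difference as a list. The list runs from the making and processing of histone transcripts to their decay, so its median stands for no single step. Of 37, all with an FPKM of 1 or more, 19 were below 0 and 18 above, with a median log2 ratio of 0.00 (0.17 with equal sums) and 0 past the 2-fold limit in either direction. Slbp was at 86.5 FPKM with the control and 65.0 with the USP21 shRNA (-0.41). Npat, a substrate of cyclin E and Cdk2 that switches on histone genes, was at 10.5 and 11.7 FPKM, and Casp8ap2, which encodes the scaffold FLASH, at 13.8 and 14.4. The U7 subunit genes Lsm10 and Lsm11 were at 19.97 and 16.01 FPKM and at 6.72 and 7.14. Zfp473, which encodes a U7 partner, was at 4.45 and 4.57 FPKM, and Eri1, an exonuclease that acts on the stem-loop, at 11.9 and 14.2. The cyclin E genes differed in direction, with Ccne1 at 150 and 182 FPKM and Ccne2 at 6.86 and 3.996.

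The medians of histone chaperones and S phase genes also lay near 0, though more S phase genes were below 0 than above. Of 24 chaperone genes 13 (54.2%) were below 0, against 49.6% of all genes. Their median log2 ratio was -0.02, with 0 past the 2-fold limit. Npm1, the highest, was at 2972 and 2276 FPKM, and Nasp, a chaperone of H3 and H4, at 239 and 242. Of 46 S phase genes 31 (67.4%) were below 0, against the same 49.6% of all genes. Their median was -0.06 (0.11 with equal sums), with 0 past the 2-fold limit. The replication clamp gene Pcna was at 495 and 401 FPKM (-0.30), the cyclin A2 gene Ccna2 at 116 and 93.9 (-0.30), and Rrm2, a subunit of ribonucleotide reductase, at 110 and 173 (0.65). Whether the share of cells in S phase differed between the 2 cultures was not tested.

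**Figure D5:**
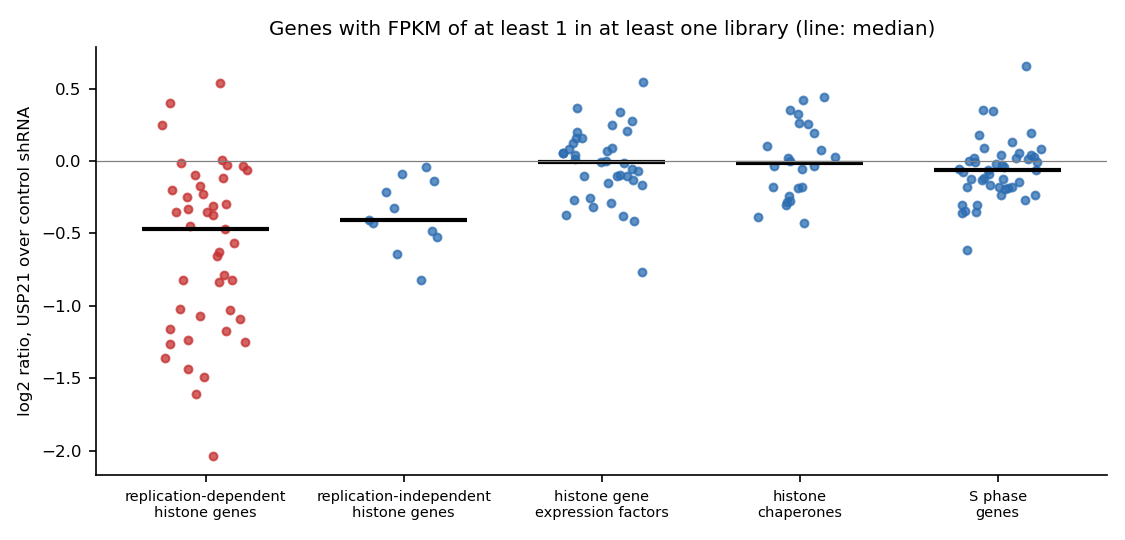
Log2 ratio (y axis) of genes with an FPKM of 1 or more in either library, in the replication-dependent histone genes (red) and 4 other lists (blue), 1 point per gene with a line at the median. Without rescaling, the medians are -0.47 and -0.41 for the 2 histone lists and 0.00, -0.02 and -0.06 for the factors, chaperones and S phase genes.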

How the data were processed

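Total RNA of 1 control shRNA and 1 USP21 shRNA library of E14 cells was sequenced. The submitters' processing notes name CASAVA 1.8.2, TopHat2 2.0.14, Cufflinks 2.2.1 and mm9. The authors deposited FPKM values, 1 per symbol and library, with no counts. Log2 ratios were computed with a pseudocount of 0.1, added once to a sum. Medians covered genes with FPKM of at least 0.1, and 2-fold counts those with at least 1, in either library. A gene was named if it was among the 3 highest of its class, past 2-fold, in a pair or a group of copies, or in Hist2, Hist3 or Hist4. The members and lists were chosen with earlier results of these data known. Transcripts came from GENCODE M21 (GRCm38), 1 per gene, and promoters from RefSeq. Coordinates are of GRCm38, not of the build of the files. The lowess correction (span 0.3) covered the 95.2% of genes past the filter with a transcript. No test or interval was computed. Scripts were tested on simulated data. The tools were matplotlib 3.10.9, scipy 1.17.1, numpy 2.4.6, statsmodels 0.14.6 and pandas 2.3.3 under Python 3.11.15.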

Additional observations from a re-analysis of the deposited data

How the results depend on the processing

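No paired analysis was possible because each group has 1 library. For the same reason no replicate could be left out. A value was taken as unmoved if it shifted by at most 0.2 (log2) without a change of sign, and a count if it stayed within 1.5 times. Of 128 values under the alternatives, 101 were unmoved, 20 moved and 7 changed sign. Equal sums of FPKM raised the median log2 ratio of all genes from 0.00 to 0.17 and the calls of all genes from 242 lower and 274 higher to 153 and 443.

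With a pseudocount of 1, Usp21 was at -2.60, the members' median at -0.28, the count of members lower by 2-fold at 2, and the pair difference at 0.020. With equal sums, 9 members were lower by 2-fold, and the medians of the factors, the S phase genes and the RNAs without a poly(A) tail became 0.17, 0.11 and 0.024. With a floor of FPKM 5, 7 members were lower by 2-fold, but the share of all genes at that floor was not computed. With the GC and length correction, which used GENCODE lengths, the members' median was -0.22, the count 5 and the summed ratio -0.25. The sums of H2A, H2B, H3 and H4 were then -0.52, -0.28, -0.41 and -0.11, those of Hist1 and Hist2 -0.20 and -0.41, and the RNAs without a poly(A) tail 0.24. Without the highest member, H1 was at -1.002, Hist2 at -0.30 and Hist3 at -1.18. Without the members that share at least 50% of their words, H2A was at -1.15, H3 at 0.54 (Hist1h3d alone was left) and Hist2 at 0.22. Groups at 50% of words and of identical protein gave 4 of 17 and 6 of 20 lower by 2-fold, against 2.03% of all single genes. The restriction to members above 0 in both libraries was chosen after seeing the data. The cause of these shifts was not tested beyond what each alternative changes. Most members rest on few fragments: an estimated 20 or more was reached by 29 members in the control library and 19 in the other.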
